A study of Mus musculus with 44 samples.

Results

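The 10 genes described here belong to the tumour necrosis factor (TNF) and NF-kappaB axis. They are the ligands Tnf and Ltb, the transcription factor subunits Nfkb2 and Relb, the inhibitors Nfkbia and Tnfaip3, the survival and response genes Birc3 and Tnfaip2, and the adhesion molecules Icam1 and Vcam1. They were chosen by name as known members and targets of the pathway, with no threshold on their values but with earlier results of these data known. All 10 were found among the 35249 genes of the deposited count table, and all 10 were among the 14862 genes with enough counts to test.

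The study asked how necroptosis, a lytic and inflammatory form of cell death, bears on inflammation and tumours of the liver in mice fed diets without choline. RNA from whole liver was sequenced in 44 mice, 1 library per mouse. Wild-type (WT) mice were compared with Ripk3-/- mice (Ripk3KO), which lack a kinase of the necroptosis machinery, and with Mlkl-/- mice (MlklKO), which lack its membrane-lytic effector. The mice were 2 months old when the diets began and stayed for 6 months on normal chow (the control diet) or on food lacking choline, either low in fat (CD-LFD) or high in fat (CD-HFD). Each of the 3 WT groups held 6 mice. Among Ripk3KO mice 6 were on the control diet, 3 on CD-LFD and 4 on CD-HFD, and among MlklKO mice 6 were on the control diet, 4 on CD-LFD and 3 on CD-HFD. The labels name no Cre line or promoter for the deletions and give no sex, litter or time of day. They do not say that mice of different genotypes were littermates, so genotype and breeding colony cannot be told apart.

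TNF binds its receptors on hepatocytes, macrophages and endothelial cells and activates the IKK kinases, which release NF-kappaB dimers from their inhibitors. The canonical arm works through RelA and p50 and drives an early wave of targets that includes its own brakes, IkappaB-alpha (Nfkbia) and A20 (Tnfaip3). The non-canonical arm is fed by lymphotoxin and related ligands and works through p52 (from Nfkb2) and RelB. When NF-kappaB survival signals fail, the same TNF receptor can lead to apoptosis or, through RIPK3 and MLKL, to necroptosis.

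The stretches of DNA before the start sites of 4 members are shown because they hold the letters that NF-kappaB recognises. RefSeq promoter sequences on GRCm38.p6 were matched by symbol for 8 of the 10 members, all but Relb and Vcam1, and the 250 bases before each start site were searched. The search used the kappaB consensus, on both strands and with overlapping matches kept. Capitals mark matches to the kappaB consensus on either strand, and in Nfkb2 the first run of capitals joins 2 overlapping matches. Positions are those of GRCm38.p6, whereas the submitters' processing notes name GRCm39 for the counts.
Ltb (chr17:35194257-35194506, plus strand): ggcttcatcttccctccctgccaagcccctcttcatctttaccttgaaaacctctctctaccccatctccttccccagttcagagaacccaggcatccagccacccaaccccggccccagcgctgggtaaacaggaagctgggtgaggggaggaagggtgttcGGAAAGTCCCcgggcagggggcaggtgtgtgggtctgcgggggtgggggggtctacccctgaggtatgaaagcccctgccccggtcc
Nfkb2, first of 3 start sites (chr19:46304487-46304736, plus strand): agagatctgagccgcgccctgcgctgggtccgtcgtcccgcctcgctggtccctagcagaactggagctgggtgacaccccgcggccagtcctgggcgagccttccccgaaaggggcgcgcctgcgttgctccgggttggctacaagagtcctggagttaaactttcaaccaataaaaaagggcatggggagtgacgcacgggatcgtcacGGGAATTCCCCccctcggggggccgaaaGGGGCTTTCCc
Nfkbia (chr12:55492648-55492897, minus strand): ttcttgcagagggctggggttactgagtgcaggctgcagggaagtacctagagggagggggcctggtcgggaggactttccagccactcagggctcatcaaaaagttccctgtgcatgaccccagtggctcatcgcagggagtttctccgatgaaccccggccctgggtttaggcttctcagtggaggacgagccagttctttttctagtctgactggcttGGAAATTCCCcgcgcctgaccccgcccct
Tnfaip3, first of 2 start sites (chr10:19015411-19015660, minus strand): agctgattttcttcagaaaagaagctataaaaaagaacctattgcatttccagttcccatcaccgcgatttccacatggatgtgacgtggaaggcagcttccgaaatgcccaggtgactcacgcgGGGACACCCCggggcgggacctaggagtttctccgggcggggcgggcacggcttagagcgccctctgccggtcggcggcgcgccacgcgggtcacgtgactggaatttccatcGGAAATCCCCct
Each is written 5′ to 3′ on the strand of its gene and ends at the base before the start. A consensus match was found before at least 1 start site in 5 of the 8 members, namely these 4 and Tnfaip2, and in none of the windows of Tnf, Birc3 and Icam1. By window, 7 of the members' 11 held a match, beside 7.25% of the 32851 promoter windows of the same length in the table. By gene, with a match in any of its windows, the share was 8.23% of 27025 genes. A match describes the letters only, since no binding was measured.

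Levels are given as CPM, the counts of a gene scaled to a common library total, after TMM scaling, which corrects for library size and composition but not for gene length, so they are compared between mice and not between genes. Total counts ran from 2476268 to 12471844 in 43 libraries and reached 88204703 in WT CD-LFD replicate 3. Ripk3 was at 0 to 2 counts in 12 of the 13 Ripk3KO libraries and at 9 counts (1.26 CPM) in the library labelled Ripk3KO control replicate 5, which lies inside the WT control range of 3 to 20 counts (0.511 to 4.89 CPM) and so goes against its label. Mlkl was counted in every MlklKO library, at 1.46 to 4.83 CPM in 12 and at 12.5 CPM in replicate 1 of MlklKO CD-HFD. It was lower than in WT on control (log2 difference -1.15, adjusted p = 0.00225) and on CD-LFD (-1.71, adjusted p = 0.00016), and on CD-HFD all 3 MlklKO livers were below the WT range of 14.3 to 17.7 CPM (-1.29, adjusted p = 0.294). Which part of the gene the remaining reads come from is not shown by the counts. Without these 2 libraries with the highest counts of the deleted gene, 1 member call was lost, that of Icam1 in Ripk3KO on the control diet. The defining hepatocyte markers Alb, Apoa1, Ttr, Serpina1c and Fgb summed to 52778 to 149924 CPM over all libraries. The clock genes Arntl and Dbp, which peak at opposite times of day, differed between libraries. Their log2 ratio was under -3 in 33 libraries, among them all knockout libraries, and over -3 in 11, which were 4 of 6 WT control, all 6 WT CD-LFD and 1 of 6 WT CD-HFD libraries.

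In WT livers 7 of the 10 genes rose on CD-HFD and 7 rose on CD-LFD. On both diets these were Tnf, Ltb, Nfkb2, Relb, Tnfaip3, Icam1 and Vcam1, while Birc3, Nfkbia and Tnfaip2 did not pass the test. Of all genes tested, 47.7% passed on CD-HFD (23.5% upward) and 27.7% on CD-LFD (13.7% upward). The median log2 change of the 10 genes was 2.07 on CD-HFD and 1.42 on CD-LFD, where the medians of all genes were -0.07 and -0.03. For 7 members the CD-HFD livers all stood above the control livers, which held for 14.3% of all genes, and for 5 members the CD-LFD livers did so, which held for 5.04% of all genes. Tnf and Ltb were low on the control diet in every genotype and passed the count filter only through the groups where they are high. Counts and medians of members that include these ligands are therefore a description. The test throughout was edgeR's quasi-likelihood F test with Benjamini-Hochberg adjustment over all genes of a comparison, and a gene is said to rise or fall where the adjusted p is under 0.05. The p-values set a difference against a spread between mice that was estimated over all 9 groups together. Nothing in the labels says whether these mice shared cages or litters, and each mouse was treated as independent.

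**Figure D1:**
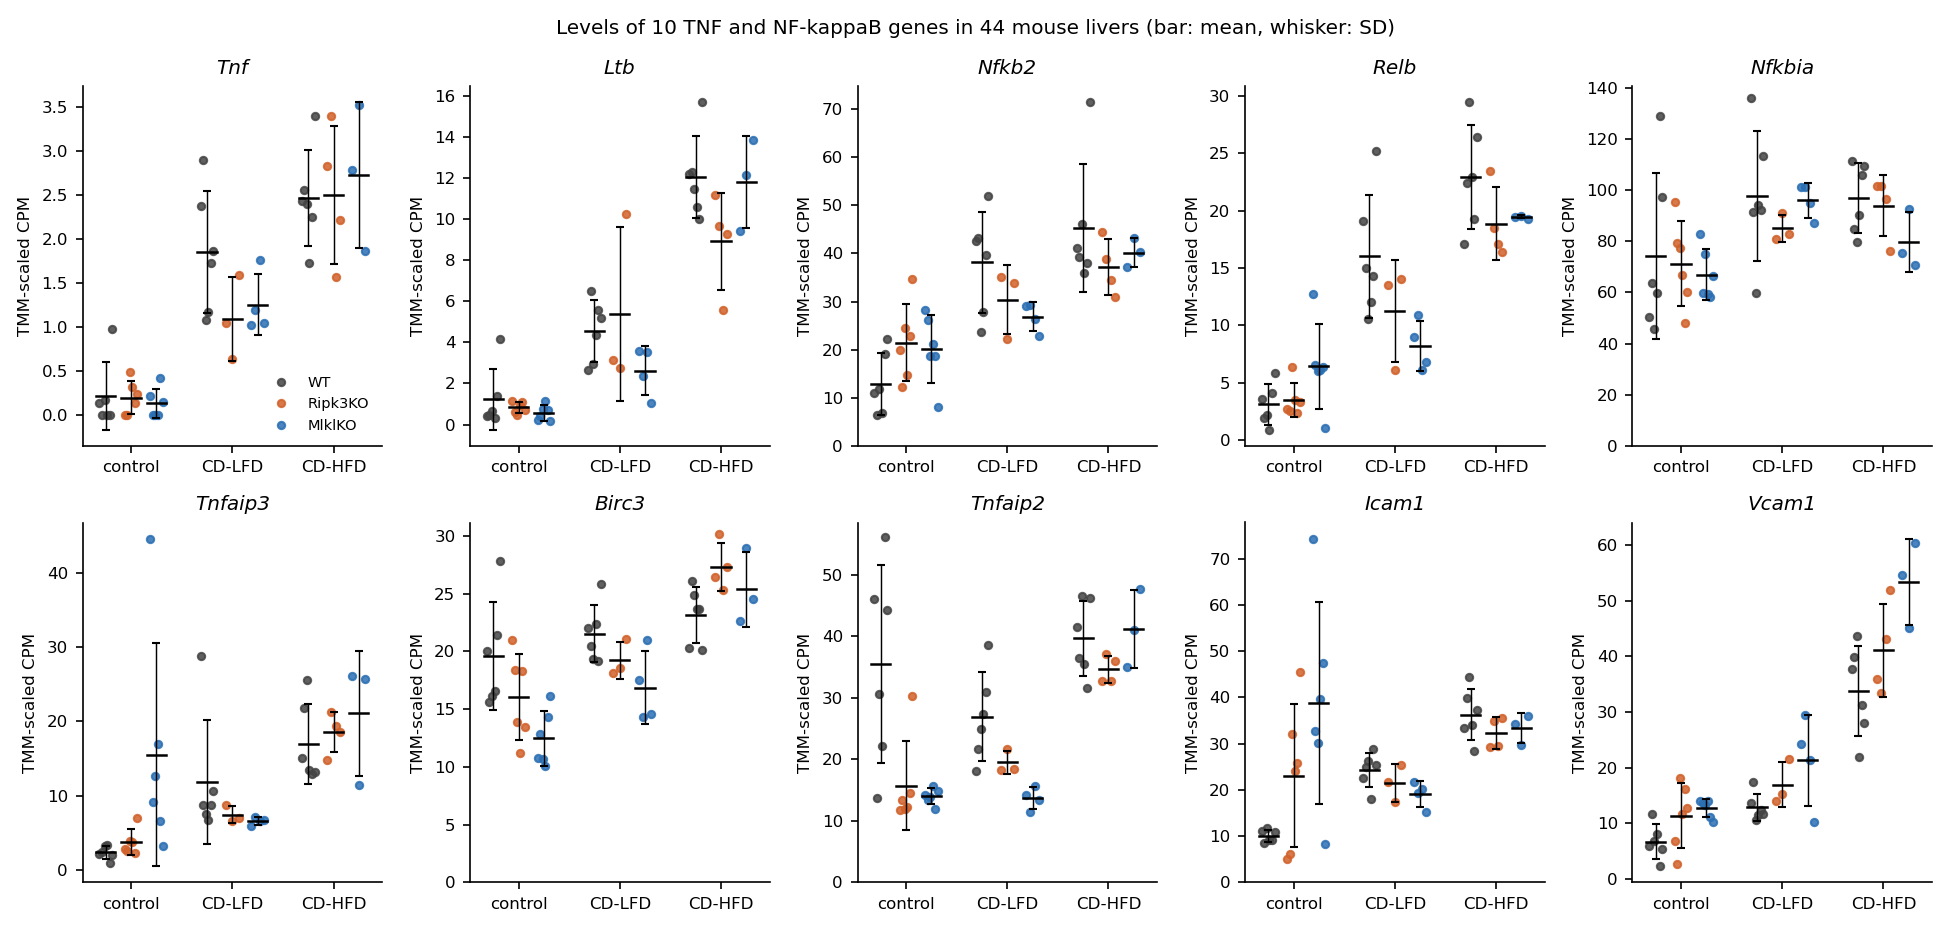
Levels of the 10 genes in TMM-scaled CPM (vertical axes) in 44 livers, grouped by diet and coloured by genotype; each point is 1 mouse, bars are means and whiskers SD. In WT, Tnf, Ltb and Relb lie higher on both CD diets than on control, with a further step from CD-LFD to CD-HFD that passed the test for Ltb alone of these 3, and Icam1 already spreads from 8.20 to 74.3 CPM in MlklKO mice on the control diet.

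Tnf, the cytokine that names the pathway, was barely counted on the control diet. It had 6 reads over the 6 WT control libraries, 3 of them at 0, with a median of 0.0690 CPM and a highest value of 0.978 CPM in replicate 6. The WT CD-LFD libraries held 162 reads at 1.08 to 2.90 CPM (median 1.80), and the WT CD-HFD libraries held 138 reads at 1.73 to 3.41 CPM (median 2.42). No CD library was as low as any control library. After division by the summed effective library sizes of each group, which are total counts times the TMM factor, the pooled ratio to control was 5.95 on CD-LFD (exact 95% counting interval 2.68 to 16.5) and 11.0 on CD-HFD (4.91 to 30.4), and the adjusted p of the edgeR fit was 0.000114 and 1.47e-06. Of the 6 control reads 4 were in replicate 6, and without that library the fitted log2 change moved from 3.37 to 4.62 on CD-HFD and from 2.91 to 4.15 on CD-LFD. Of the 162 CD-LFD reads 94 came from replicate 3, the deepest library. The intervals reflect counting error alone, because reads were pooled over the mice of a group and the spread between mice is left out. PCR copies of a molecule could also not be told from separate molecules. The WT CD-HFD and CD-LFD libraries overlapped, and their difference did not pass (log2 difference 0.46, SE 0.35, adjusted p = 0.394).

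Ltb encodes lymphotoxin beta, a membrane ligand made by lymphocytes that signals to the non-canonical arm. It ran from 0.307 to 4.15 CPM in WT control (median 0.585), from 2.65 to 6.52 in CD-LFD livers (median 4.77), and from 9.99 to 15.7 in CD-HFD livers (median 11.8). CD-HFD libraries stood above every CD-LFD and every control library (7.63% of all genes were apart and higher on CD-HFD than on CD-LFD), while CD-LFD overlapped control through WT control replicate 6, the highest of its group. The log2 change was 3.35 (SE 0.41, adjusted p = 6.54e-09) on CD-HFD and 1.92 (SE 0.42, adjusted p = 0.000745) on CD-LFD. Without WT control replicate 6 these changes were 4.33 and 2.90. Ltb was also 1.44 higher on the log2 scale on CD-HFD than on CD-LFD (SE 0.32, adjusted p = 0.000816).

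Nfkb2 encodes p100, the precursor of the non-canonical subunit p52. WT control livers lay at 6.35 to 22.2 CPM (median 11.4), CD-LFD livers at 23.7 to 51.9 (median 41.1) and CD-HFD livers at 35.9 to 71.5 (median 40.3). Both CD groups were clear of the control group but not of each other. The log2 change was 1.84 on CD-HFD (SE 0.27, adjusted p = 2.72e-07) and 1.58 on CD-LFD (SE 0.27, adjusted p = 2e-05), and the difference between the CD diets was 0.25 (SE 0.24, adjusted p = 0.521).

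Relb is the partner of p52 on DNA. It lay at 0.922 to 5.87 CPM in WT control (median 2.90), at 10.5 to 25.2 on CD-LFD (median 14.7) and at 17.1 to 29.5 on CD-HFD (median 22.7). Neither CD group touched the control range. The log2 change was 2.88 on CD-HFD (SE 0.33, adjusted p = 2.35e-09) and 2.36 on CD-LFD (SE 0.34, adjusted p = 1.14e-06), with a difference of 0.52 between the CD diets (SE 0.27, adjusted p = 0.181).

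Of the inhibitors, Tnfaip3 passed in WT and Nfkbia did not. Tnfaip3 encodes A20, a ubiquitin-editing enzyme that shuts off signalling at the TNF receptor complex. It lay at 0.913 to 3.38 CPM in WT control (median 2.26), at 6.68 to 28.7 on CD-LFD (median 8.67) and at 12.9 to 25.5 on CD-HFD (median 14.2). The control libraries were below every CD library, and on CD-LFD replicate 1 stood far above the rest of its group. The log2 change was 2.81 on CD-HFD (SE 0.44, adjusted p = 1.34e-06) and 2.28 on CD-LFD (SE 0.45, adjusted p = 0.000177). Nfkbia encodes IkappaB-alpha, which holds NF-kappaB dimers in the cytoplasm. It ran from 45.6 to 129 CPM in WT control (median 61.7), from 59.8 to 136 on CD-LFD (median 93.1) and from 79.7 to 111 on CD-HFD (median 98.1), so all groups overlapped. Its log2 difference from control was 0.39 on CD-HFD (SE 0.19, adjusted p = 0.0771) and 0.40 on CD-LFD (SE 0.19, adjusted p = 0.0989).

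Birc3 encodes cIAP2, a ubiquitin ligase that keeps TNF signalling on its survival branch. In WT it lay at 15.6 to 27.9 CPM on the control diet (median 18.3), 19.2 to 25.8 on CD-LFD (median 21.3) and 20.1 to 26.1 on CD-HFD (median 23.7), with adjusted p = 0.522 and 0.173 against control. Tnfaip2 is a TNF-induced gene first described in endothelial cells. Its WT control range, 13.7 to 56.1 CPM (median 37.4), contained the whole CD-LFD range of 18.1 to 38.6 (median 26.2) and the whole CD-HFD range of 31.6 to 46.6 (median 39.1), with adjusted p = 0.178 and 0.541. The 2 WT control libraries with a clock ratio under -3, replicates 2 and 4, had the lowest Tnfaip2 of the group at 13.7 and 22.1 CPM, and the other four lay at 30.6 to 56.1. Among libraries with a ratio under -3 alone, 2 WT control against 5 WT CD-HFD, 10 of the 10 genes were called higher, with log2 changes of 1.15 for Tnfaip2 (adjusted p = 0.000709), 0.54 for Birc3 (adjusted p = 0.0371) and 0.75 for Nfkbia (adjusted p = 0.00278). That restriction was chosen after seeing the data and rests on 2 control livers. In it 6752 of all genes were called, higher and lower together. The log2 changes there were 4.88 for Ltb, 2.83 for Nfkb2, 3.89 for Relb and 1.71 for Vcam1. With the clock ratio as a covariate that of Relb was 3.71.

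Icam1 and Vcam1 are receptors on activated endothelium and other cells to which leukocytes bind as they leave the vessel. Icam1 was even in WT control at 8.55 to 11.7 CPM (median 10.1), and lay at 18.0 to 28.8 on CD-LFD (median 25.1) and 28.4 to 44.4 on CD-HFD (median 35.7). Neither CD group touched the control range. Its log2 change was 1.82 on CD-HFD (SE 0.34, adjusted p = 2.01e-05) and 1.25 on CD-LFD (SE 0.34, adjusted p = 0.00474). Vcam1 lay at 2.28 to 11.7 CPM in WT control (median 6.37), at 10.6 to 17.4 on CD-LFD (median 12) and at 22.0 to 43.6 on CD-HFD (median 34.4). The CD-HFD libraries exceeded all CD-LFD and control libraries, and CD-LFD met control only at WT control replicate 2. Its log2 change was 2.30 on CD-HFD (SE 0.28, adjusted p = 7.4e-09) and 0.90 on CD-LFD (SE 0.28, adjusted p = 0.0153), and the CD-LFD call was lost without WT control replicates 5 and 6 together (log2 change 0.68, adjusted p = 0.0651). Between the CD diets Vcam1 differed by 1.40 (SE 0.25, adjusted p = 6.53e-05). Vcam1 and Ltb were the 2 of 10 genes higher on CD-HFD than on CD-LFD in WT, where 21.1% of all genes passed (13.7% upward), and 4 members passed with the clock ratio as a covariate.

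Scaling by library size alone, which does not correct for composition, moved the median of all genes on WT CD-HFD from -0.07 to 0.43 on the log2 scale and the calls from 3496 higher and 3586 lower to 6813 higher and 1020 lower. On WT CD-LFD the median moved to 0.27 and the calls from 2040 higher and 2077 lower to 4142 higher and 737 lower. Changes are given relative to the TMM centre, and none of the 64 member calls changed direction under the 2 other scalings tried.

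Markers of other cell types moved with the same WT groups. Of 5 macrophage markers (Adgre1, Cd68, Csf1r, Lyz2 and Itgam) 5 rose on CD-HFD and 3 on CD-LFD, and their summed level ran from 67.6 to 86.8 CPM on control, 112 to 217 on CD-LFD and 596 to 1769 on CD-HFD, with none at 0. For lipid-associated macrophage markers (Trem2, Gpnmb, Spp1, Cd9 and Itgax) 5 of 5 rose on both diets, with sums of 48.4 to 69.9, 186 to 400 and 983 to 1936 CPM. T and NK cell markers (Cd3e, Cd3g, Cd8a, Cd4 and Nkg7) rose in 4 of 5 on both diets, while the other fell on CD-LFD, with sums of 1.71 to 4.56, 3.35 to 14.4 and 9.95 to 26.7 CPM. By contrast 4 of 5 endothelial markers fell on CD-HFD, from 118 to 163 CPM on control to 57.1 to 86.8, and 5 of 5 hepatocyte markers fell. Also on CD-HFD dendritic cell markers rose in 5 of 5, cholangiocyte markers in 5 of 5, stellate cell markers in 3 of 5, neutrophil markers in 2 of the 3 tested (0.307 to 6.30 CPM on control, 3.60 to 11.2 on CD-HFD) and B and plasma cell markers in 1 of 4, while Kupffer cell markers, those of resident macrophages, fell in 3 of 5 (120 to 168 CPM on control, 39.4 to 130 on CD-HFD). On CD-LFD dendritic cell markers rose in 5 of 5 and cholangiocyte and stellate cell markers in 3 of 5 each, and Kupffer, endothelial and hepatocyte markers fell in 2, 3 and 2 of 5. Between CD-HFD and CD-LFD, macrophage, lipid-associated macrophage and cholangiocyte markers were higher in 5 of 5. T and NK cell markers were higher in 3 of 5, stellate cell in 2 of 5, dendritic cell in 1 of 5 and neutrophil in 1 of 3. Hepatocyte markers were lower in 2 of 5 and endothelial markers in 1 of 5. In whole liver a change in the number of cells of a type and a change in RNA per cell cannot be told apart, and the part of cell composition in the members' changes was not tested.

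**Figure D2:**
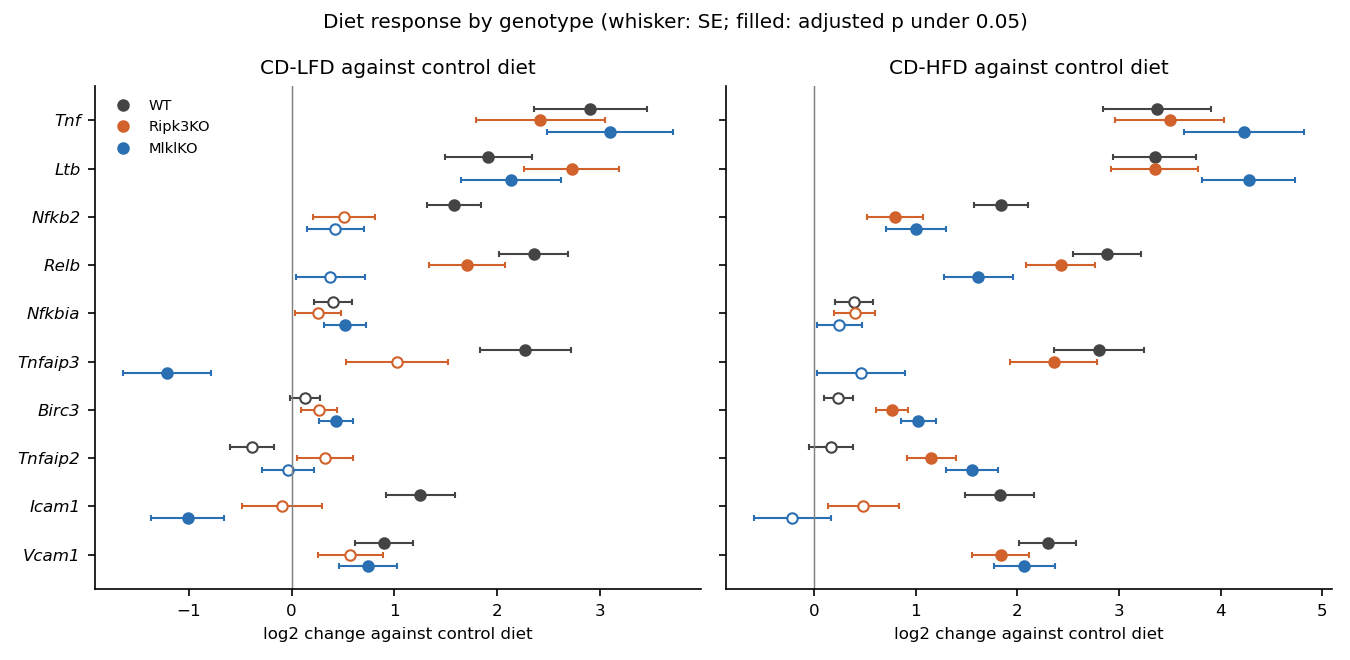
Log2 change against the control diet of the same genotype (horizontal axes) on CD-LFD (left) and CD-HFD (right), with SE as whiskers and filled points where the adjusted p is under 0.05. Tnf, Ltb, Relb, Nfkb2 and Vcam1 are filled on CD-HFD in all 3 genotypes, Birc3 and Tnfaip2 in both knockouts, and Icam1 in WT; the Tnf points rest on 5 to 7 control reads per genotype.

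In Ripk3KO livers 8 of the 10 genes rose on CD-HFD and 3 rose on CD-LFD. Across all genes 46.3% passed on CD-HFD (24.6% upward) and 24.1% on CD-LFD (14% upward). Nfkbia and Icam1 were the 2 that did not pass on CD-HFD, and Tnf, Ltb and Relb were the 3 that rose on CD-LFD. Tnf had 7 reads in 6 control libraries, at 0 to 0.489 CPM. It stood at 1.04, 0.632 and 1.59 CPM on CD-LFD and at 2.83, 3.40, 1.57 and 2.22 CPM on CD-HFD, each above every control. On CD-LFD 10.9% of all genes were likewise apart and higher. The pooled ratio to control was 6.13 on CD-LFD (counting interval 2.63 to 16.6, adjusted p of the edgeR fit 0.00424) and 11.6 on CD-HFD (5.40 to 29.6, adjusted p of the edgeR fit 9e-07). The CD-LFD call for Tnf was lost without Ripk3KO CD-LFD replicate 3 (adjusted p = 0.124).

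Ltb ran from 0.489 to 1.17 CPM on the control diet in Ripk3KO mice, and was 3.12, 2.74 and 10.3 CPM on CD-LFD and 11.2, 9.65, 5.59 and 9.30 CPM on CD-HFD. Replicate 3 on CD-LFD reached the CD-HFD range, and both CD groups were clear of control, with log2 changes of 2.73 (SE 0.46, adjusted p = 3.23e-05) and 3.35 (SE 0.43, adjusted p = 2.44e-08). Without that CD-LFD replicate the change on CD-LFD was 1.76 (adjusted p = 0.039). Relb was 2.37 to 6.36 CPM on control and 13.5, 6.11 and 14.1 CPM on CD-LFD. It reached 23.5, 18.5, 17.1 and 16.4 CPM on CD-HFD. Replicate 2 on CD-LFD fell inside the control range, and the log2 change was 1.71 on CD-LFD (SE 0.37, adjusted p = 0.000781) and 2.43 on CD-HFD (SE 0.34, adjusted p = 1.4e-07). Tnfaip3 was 14.8, 21.3, 19.3 and 18.6 CPM on CD-HFD against 2.24 to 6.98 on control, a log2 change of 2.36 (SE 0.43, adjusted p = 1.91e-05).

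The 4 other rises on CD-HFD in Ripk3KO mice were those of Nfkb2, Birc3, Tnfaip2 and Vcam1. Nfkb2 was 44.5, 38.9, 34.5 and 30.9 CPM against 12.1 to 34.7 on control (log2 change 0.80, SE 0.28, adjusted p = 0.016). Its groups overlapped, and the call was lost without CD-HFD replicate 1 (adjusted p = 0.058). Birc3 reached 26.5, 30.2, 25.4 and 27.3 CPM against 11.2 to 21.0 on control (log2 change 0.77, SE 0.16, adjusted p = 0.000104). Tnfaip2 reached 32.8, 37.1, 32.7 and 36.0 CPM against 11.9 to 30.3 (log2 change 1.15, SE 0.24, adjusted p = 0.000116), with control replicate 6 alone above 14.5. Vcam1 reached 36.0, 33.3, 43.1 and 51.9 CPM against 2.72 to 18.1 (log2 change 1.84, SE 0.28, adjusted p = 8.55e-07). For Birc3, Tnfaip2 and Vcam1, and for Tnf, Ltb, Relb and Tnfaip3, every CD-HFD liver was above every control liver, which held for 20.6% of all genes. Icam1 was 29.3, 35, 29.5 and 35.5 CPM on CD-HFD, inside the control range of 5.05 to 45.5, with a log2 difference of 0.49 (SE 0.35, adjusted p = 0.254). Between CD-HFD and CD-LFD, Vcam1 was the 1 gene of 10 called, with 8.83% of all genes called (log2 difference 1.27, SE 0.34, adjusted p = 0.0136). That call was lost without CD-LFD replicate 1 (adjusted p = 0.0878), CD-LFD replicate 2 (adjusted p = 0.0894) or CD-HFD replicate 5 (adjusted p = 0.0532), and without CD-LFD replicate 3 there were 2 calls.

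In MlklKO livers 7 of the 10 genes rose on CD-HFD, and on CD-LFD 5 rose and 2 fell. Of all genes 45.2% passed on CD-HFD (24.9% upward) and 37.9% on CD-LFD (19.7% upward and 18.3% downward). The genes that rose on CD-HFD were Tnf, Ltb, Nfkb2, Relb, Birc3, Tnfaip2 and Vcam1. For 7 members the CD-HFD livers stood above every MlklKO control liver, which was so for 22.2% of all genes. Tnf had 5 reads in 6 control libraries, at 0 to 0.414 CPM, and was 2.79, 3.52 and 1.87 CPM on CD-HFD, a pooled ratio of 20.7 (counting interval 8.38 to 66.3, adjusted p of the edgeR fit 1.6e-07). Without MlklKO control replicate 5 the fitted log2 change of Tnf moved from 4.23 to 5.10. Ltb was 9.40, 12.1 and 13.9 CPM against 0.149 to 1.17 (log2 change 4.28, SE 0.46, adjusted p = 4.41e-10). Relb was 19.5, 19.6 and 19.3 CPM against 1.04 to 12.7 (log2 change 1.62, SE 0.34, adjusted p = 0.000158).

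Nfkb2 was 37.1, 43.2 and 40.3 CPM on CD-HFD against 8.05 to 28.2 in MlklKO control (log2 change 1.0, SE 0.30, adjusted p = 0.00517). Birc3 was 22.6, 29.0 and 24.5 CPM against 10.1 to 16.1 (log2 change 1.02, SE 0.17, adjusted p = 5.19e-06). Tnfaip2 was 35, 41.0 and 47.7 CPM against 12 to 15.8 (log2 change 1.55, SE 0.26, adjusted p = 3.59e-06). Vcam1 was 54.7, 45.0 and 60.4 CPM, the highest mean of the 9 groups, against 10.3 to 14.0 (log2 change 2.07, SE 0.30, adjusted p = 2.6e-07). Icam1 at 34.3, 29.8 and 36.0 CPM and Tnfaip3 at 26.1, 11.4 and 25.7 CPM lay within their MlklKO control ranges of 8.20 to 74.3 and 3.13 to 44.6, with adjusted p = 0.681 and 0.399.

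On CD-LFD the MlklKO livers showed the 2 falls. Icam1 was 21.6, 19.4, 20.2 and 15.2 CPM, below 5 of the 6 control livers (log2 change -1.01, SE 0.36, adjusted p = 0.0243). Tnfaip3 was 5.94, 7.15, 6.58 and 6.70 CPM, below 4 of the 6 (log2 change -1.21, SE 0.43, adjusted p = 0.0242). Both calls were lost without MlklKO control replicate 1, the highest library for both genes, where the log2 change was -0.73 for Icam1 (adjusted p = 0.103) and -0.57 for Tnfaip3 (adjusted p = 0.237). The Icam1 call was also lost without CD-LFD replicate 4 (adjusted p = 0.0715) and the Tnfaip3 call without CD-LFD replicate 1 (adjusted p = 0.0656). In a fit of the 2 compared groups alone the adjusted p was 0.0662 for Icam1 and 0.101 for Tnfaip3, and for Icam1 it was 0.0607 with library size as the only scaling and 0.0514 with the clock ratio as a covariate. Tnf rose to 1.02, 1.19, 1.76 and 1.04 CPM (pooled ratio 9.18, counting interval 3.61 to 29.9, adjusted p of the edgeR fit 0.00016), and the fitted log2 change moved from 3.10 to 3.97 without MlklKO control replicate 5. Ltb rose to 3.56, 2.38, 3.53 and 1.04 CPM (log2 change 2.13, SE 0.49, adjusted p = 0.000796). For both ligands these livers were higher than on control, except that Ltb in CD-LFD replicate 4 fell inside the control range.

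The rises of Nfkbia (log2 change 0.52, adjusted p = 0.0406), Birc3 (0.43, adjusted p = 0.0323) and Vcam1 (0.75, adjusted p = 0.035) on CD-LFD in MlklKO livers were near the threshold. Nfkbia was 101, 101, 94.8 and 87.0 CPM against 58.4 to 82.7 on control, with no overlap, and 13.6% of all genes were likewise apart and higher. The Nfkbia call was lost without any 1 of MlklKO control replicates 2, 4, 5 and 6 and CD-LFD replicates 1, 2 and 3 (adjusted p up to 0.0906). The Birc3 call was lost without any 1 of control replicates 1, 3 and 4 and CD-LFD replicates 1 and 3 (adjusted p up to 0.156), and the Vcam1 call without any 1 of control replicates 5 and 6 and CD-LFD replicates 1, 2 and 3 (adjusted p up to 0.156). With the clock ratio as a covariate the adjusted p of Vcam1 was 0.0693, and with no count filter it was 0.0698 for Nfkbia and 0.113 for Birc3. Of the 7 calls, 4 were left without control replicate 1, 3 without CD-LFD replicate 1 and 4 without CD-LFD replicate 3.

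Between the 2 choline-deficient diets 6 of the 10 genes were higher on CD-HFD in MlklKO livers, where 23.7% of all genes passed (14.6% upward). They were Ltb (log2 difference 2.14, SE 0.43, adjusted p = 0.000319), Relb (1.24, SE 0.37, adjusted p = 0.0125), Tnfaip3 (1.67, SE 0.48, adjusted p = 0.0094), Birc3 (0.59, SE 0.19, adjusted p = 0.0183), Tnfaip2 (1.59, SE 0.28, adjusted p = 6.72e-05) and Vcam1 (1.32, SE 0.32, adjusted p = 0.00241). The Tnfaip3 call was lost without CD-HFD replicate 4 (adjusted p = 0.0611), and the Birc3 call without CD-LFD replicate 2 (adjusted p = 0.0601), CD-LFD replicate 4 (adjusted p = 0.0612) or CD-HFD replicate 2 (adjusted p = 0.135), and with no count filter (adjusted p = 0.078).

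Macrophage markers rose in both knockouts as well, in 5 of 5 on CD-HFD. Their sum ran from 24.9 to 155 CPM on control and from 843 to 1244 on CD-HFD in Ripk3KO, and from 44.2 to 93.1 and from 921 to 1541 in MlklKO. Also on CD-HFD 4 of 5 T and NK cell markers rose in each, dendritic cell markers rose in 4 of 5 in Ripk3KO and 5 of 5 in MlklKO, hepatocyte markers fell in 5 of 5 and 3 of 5, and endothelial markers fell in 3 of 5 and 1 of 5. In both knockouts on CD-HFD lipid-associated macrophage and cholangiocyte markers rose in 5 of 5, stellate cell markers in 3 of 5 and B and plasma cell markers in 3 of the 4 tested (8.22 to 14.5 CPM against 2.05 to 7.97 on control in Ripk3KO, and 8.88 to 11.5 against 1.79 to 5.21 in MlklKO). Of 5 Kupffer cell markers 2 fell in Ripk3KO, and 1 rose and 1 fell in MlklKO. On CD-LFD in Ripk3KO, lipid-associated macrophage and cholangiocyte markers rose in 5 of 5, macrophage, dendritic cell and T and NK cell markers in 3 of 5, B and plasma cell markers in 3 of 4 and stellate cell markers in 2 of 5. There 2 of 5 Kupffer cell and 1 of 5 hepatocyte markers fell, and of 5 endothelial markers 1 rose and 2 fell. On CD-LFD in MlklKO, where 5 members rose and Icam1 and Tnfaip3 fell, dendritic cell markers rose in 5 of 5, macrophage markers in 4 of 5, lipid-associated macrophage and T and NK cell markers in 3 of 5, B and plasma cell markers in 3 of 4 and a stellate cell marker in 1 of 5. There 2 of 5 Kupffer cell markers fell, of 5 hepatocyte markers 1 rose and 1 fell, endothelial markers fell in 4 of 5 (64.2 to 118 CPM against 92.4 to 151 on control) and neutrophil markers in 2 of 3 (1.10 to 3.05 CPM against 0.895 to 10.6). Between CD-HFD and CD-LFD, macrophage and lipid-associated macrophage markers were higher in 5 of 5 in both knockouts. In MlklKO so were cholangiocyte markers in 5 of 5, neutrophil markers in 2 of 3 and stellate cell markers in 2 of 5. Dendritic cell, T and NK cell and endothelial markers were higher there in 1 of 5 each. In Ripk3KO 1 of 5 stellate cell markers was higher. Hepatocyte markers were lower in 3 of 5 in MlklKO and 2 of 5 in Ripk3KO. The part of these cells in the members' changes was not tested.

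On the control diet 6 of the 10 genes differed between MlklKO and WT livers, with 27.1% of all genes called (13% upward and 14.1% downward). Icam1, Tnfaip3, Relb and Vcam1 were higher, and Tnfaip2 and Birc3 were lower. Between Ripk3KO and WT livers 2 of the 10 differed, with 4.47% of all genes called (2.25% upward and 2.23% downward). Here Icam1 was higher and Tnfaip2 lower. For 0 of the members did the 2 groups stand fully apart, which held for 4.95% of all genes in MlklKO and 0.922% in Ripk3KO. Of the 5 macrophage markers 0 were called in either knockout. Of the 5 lipid-associated macrophage markers 0 were called in Ripk3KO and 1, Spp1, was higher in MlklKO, where the summed level was 85.6 to 145 CPM against 48.4 to 69.9 in WT, with no overlap. Neutrophil markers were higher in 2 of the 3 tested in MlklKO and in 1 of 3 in Ripk3KO, with sums of 0.307 to 6.30 CPM in WT, 0.895 to 10.6 in MlklKO and 0.838 to 9.92 in Ripk3KO, and with Mpo at 0 in all MlklKO control and Ly6g at 0 in all WT control libraries. In MlklKO 2 of 5 endothelial markers were higher and 1 lower (sums of 92.4 to 151 CPM against 118 to 163 in WT), and 3 of 4 B and plasma cell markers were lower (1.79 to 5.21 CPM against 3.91 to 12.7). In MlklKO 1 of 5 cholangiocyte, 1 of 5 stellate cell and 1 of 5 hepatocyte markers were also higher, as was 1 of 5 hepatocyte markers in Ripk3KO. Their part in the members' differences was not tested.

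Icam1 in MlklKO control livers was 74.3, 32.8, 30.2, 39.7, 47.5 and 8.20 CPM against 8.55 to 11.7 in WT, so 5 of 6 were above all WT and 1 below (log2 difference 1.92, SE 0.34, adjusted p = 5.72e-05). In Ripk3KO control livers it was 5.05, 6.07, 32.1, 24.1, 25.8 and 45.5 CPM, with 4 above and 2 below the whole WT range (log2 difference 1.17, SE 0.34, adjusted p = 0.0361). That Ripk3KO call was lost in 8 of the 12 fits that left out 1 library, namely WT control replicates 2, 4, 5 and 6 and Ripk3KO control replicates 3, 4, 5 and 6, with adjusted p from 0.00471 to 0.150 over the 12. It was also lost with library size as the only scaling (adjusted p = 0.0612), with the replicate block (adjusted p = 0.0555) and with the clock ratio as a covariate (adjusted p = 0.115). The same held without WT control replicates 5 and 6 (adjusted p = 0.106) and among libraries with a clock ratio under -3 (adjusted p = 0.27). In a fit of the 2 compared groups alone its adjusted p was 0.293. That fit called 0 members and 45 of all genes, where the main fit called 665 of all genes. The Icam1 call was lost as well without the libraries labelled Ripk3KO control replicate 5 and MlklKO CD-HFD replicate 1 (adjusted p = 0.0753). These had the highest counts of the deleted gene within their knockouts.

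Tnfaip3 in MlklKO control was 44.6, 9.12, 12.7, 16.9, 6.62 and 3.13 CPM against 0.913 to 3.38 in WT, with 5 of 6 above all WT (log2 difference 2.66, SE 0.45, adjusted p = 2.97e-05). In Ripk3KO control it was 2.24 to 6.98 CPM (adjusted p = 0.543). The MlklKO differences of Icam1 and Tnfaip3 kept their calls in each of the 12 fits without 1 library. Without MlklKO control replicate 1 the difference of Tnfaip3 was 2.01. Among libraries with a clock ratio under -3 the differences of Icam1 and Tnfaip3 were 2.14 (adjusted p = 0.0185) and 2.42 (adjusted p = 0.0166).

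Relb was 12.7, 6.52, 6.03, 6.13, 6.35 and 1.04 CPM in MlklKO control against 0.922 to 5.87 in WT (log2 difference 1.03, SE 0.35, adjusted p = 0.0261). Its call was lost without MlklKO control replicate 1 (adjusted p = 0.122) or WT control replicate 2 (adjusted p = 0.0545), 3 (adjusted p = 0.0582) or 4 (adjusted p = 0.0642), and with library size as the only scaling (adjusted p = 0.0548) or in a fit of the 2 compared groups alone (adjusted p = 0.159). It was 1.72 with the clock ratio as a covariate (adjusted p = 0.00152) and 2.10 among libraries with a clock ratio under -3 (adjusted p = 0.0239). Vcam1 was 10.3 to 14.0 CPM in MlklKO control against 2.28 to 11.7 in WT (log2 difference 0.89, SE 0.29, adjusted p = 0.0175). It was not called without WT control replicates 5 and 6 together (0.67, adjusted p = 0.12), with the clock ratio as a covariate (0.79, adjusted p = 0.0598) or among libraries with a clock ratio under -3 (0.37, adjusted p = 0.602).

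Tnfaip2 was 12 to 15.8 CPM in MlklKO control and 11.9 to 30.3 in Ripk3KO control against 13.7 to 56.1 in WT. The log2 differences from WT were -1.33 (SE 0.22, adjusted p = 3.02e-05) and -1.18 (SE 0.22, adjusted p = 0.000959). All knockout control libraries had clock ratios of -7.40 to -3.67, and the 2 WT control libraries in or near that range, replicates 2 and 4, at -5.79 and -7.88, had the lowest Tnfaip2 of the WT control livers. Against those 2 livers alone the Tnfaip2 differences were -0.31 (adjusted p = 0.456) in MlklKO and -0.19 (adjusted p = 0.794) in Ripk3KO. In Ripk3KO the Tnfaip2 call was also lost in a fit of the 2 compared groups alone (-1.23, adjusted p = 0.142) and with the clock ratio as a covariate (-0.49, adjusted p = 0.45). In MlklKO it passed in both, at -1.38 (adjusted p = 0.00627) and -0.89 (adjusted p = 0.00335). Nfkb2, not called over all control libraries, was higher than in those 2 WT livers in MlklKO (1.63, adjusted p = 0.00866) and in Ripk3KO (1.71, adjusted p = 0.0328). Birc3 was 10.1 to 16.1 CPM in MlklKO control against 15.6 to 27.9 in WT (log2 difference -0.65, SE 0.15, adjusted p = 0.00132), and the difference was -0.34 (adjusted p = 0.289) against those 2 livers.

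**Figure D3:**
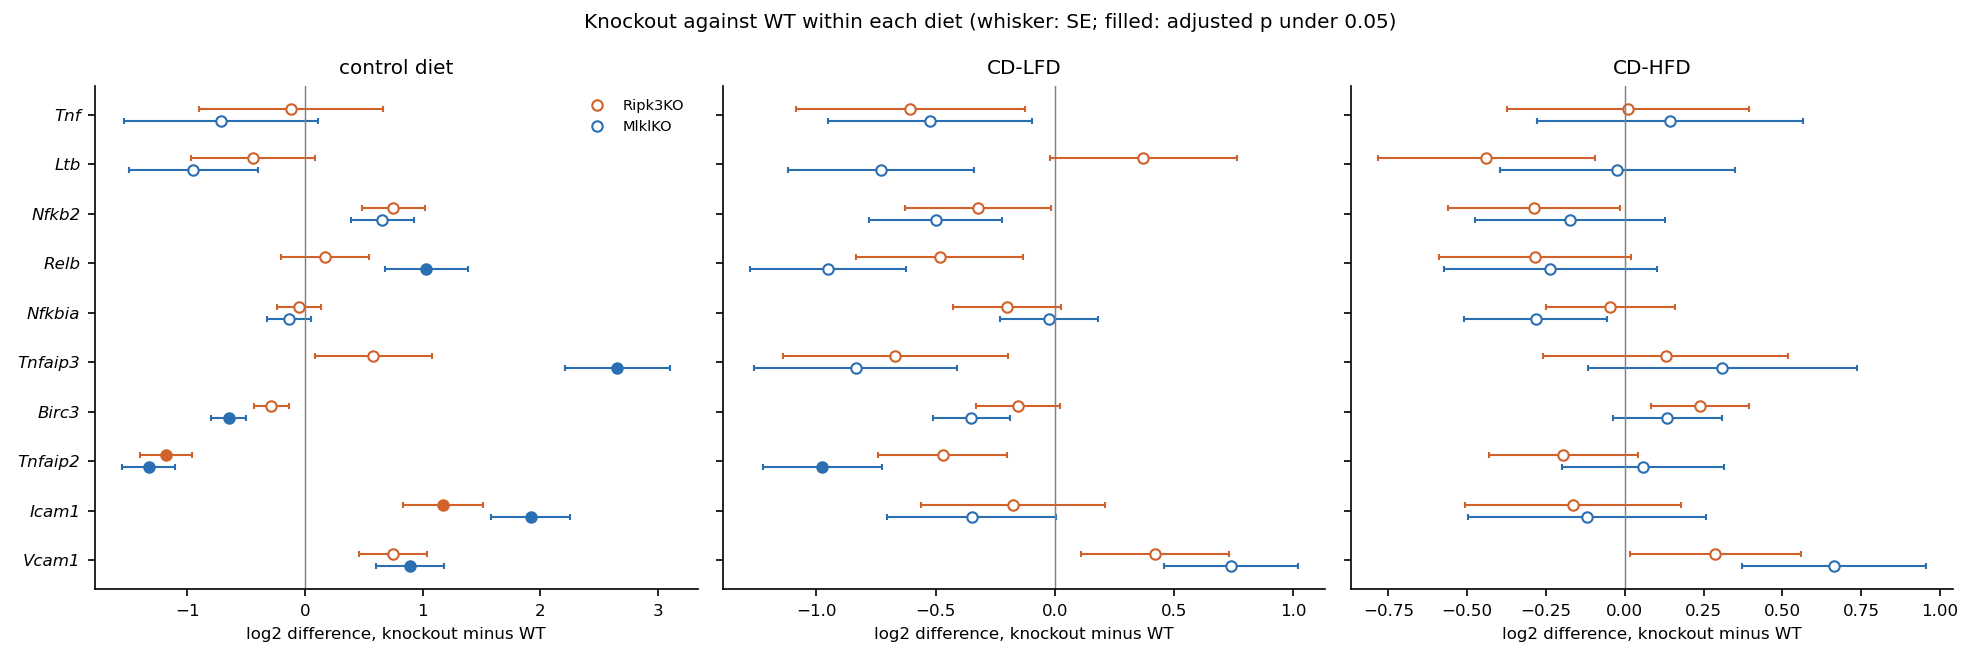
Log2 difference of each knockout from WT on the same diet (horizontal axes; whiskers SE, filled where the adjusted p is under 0.05) for the control diet (left), CD-LFD (middle) and CD-HFD (right). On the control diet 6 MlklKO points and 2 Ripk3KO points are filled, on CD-LFD 1 (MlklKO Tnfaip2) and on CD-HFD 0.

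On CD-HFD no difference between a knockout and WT passed in these genes. EdgeR called 0 of 10 in Ripk3KO against WT (0.377% of all genes called, 0 members at an unadjusted p under 0.05 beside 8.73% of all genes, 0 by DESeq2) and 0 of 10 in MlklKO against WT (0% of all genes called, 1 member at an unadjusted p under 0.05 beside 8.38% of all genes, 0 by DESeq2). The 1 was Vcam1, at 45.0 to 60.4 CPM in MlklKO and 22.0 to 43.6 in WT with no overlap (2.35% of all genes were apart and higher), a log2 difference of 0.66 (SE 0.29, adjusted p = 0.587). The differences of the other nine in MlklKO lay between -0.28 for Nfkbia (SE 0.23) and 0.31 for Tnfaip3 (SE 0.43). In Ripk3KO the 10 lay between -0.44 for Ltb (SE 0.34) and 0.29 for Vcam1 (SE 0.27). Tnf differed by 0.01 in Ripk3KO (SE 0.38) and by 0.14 in MlklKO (SE 0.42). A missing call at these errors does not show equal levels.

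On CD-LFD edgeR called 0 of 10 in Ripk3KO against WT (1.1% of all genes, 0 members at an unadjusted p under 0.05 beside 11.4% of all genes, 0 by DESeq2) and 1 of 10 in MlklKO against WT (2.56% of all genes). This was Tnfaip2, at 14.2, 11.5, 15.7 and 13.4 CPM in MlklKO against 18.1 to 38.6 in WT, with a log2 difference of -0.97 (SE 0.25, adjusted p = 0.0227). Every MlklKO liver was below every WT liver, as for 3.1% of all genes. The call was lost without WT CD-LFD replicate 5 (adjusted p = 0.0501) or 6 (adjusted p = 0.0747) or MlklKO CD-LFD replicate 1 (adjusted p = 0.0623), 2 (adjusted p = 0.106) or 4 (adjusted p = 0.0684). All WT CD-LFD libraries had clock ratios of -2.66 or more. All MlklKO CD-LFD libraries had -5.85 or less and all Ripk3KO CD-LFD libraries -6.10 or less. Clock phase and genotype therefore cannot be told apart on this diet for either knockout. With the clock ratio as a covariate the Tnfaip2 difference in MlklKO was -0.39 (adjusted p = 0.858).

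Whether the diet response itself differed from that of WT was tested by the interaction of knockout and diet. It was passed by 4 of the 10 genes for MlklKO on CD-HFD (4.12% of all genes) and by 3 for MlklKO on CD-LFD (8.45% of all genes). On CD-HFD the MlklKO response was below the WT response for Icam1 (interaction -2.04 on the log2 scale, SE 0.52, adjusted p = 0.0187) and Tnfaip3 (-2.35, SE 0.64, adjusted p = 0.028). It was above the WT response for Tnfaip2 (1.38, SE 0.34, adjusted p = 0.0138) and Birc3 (0.78, SE 0.23, adjusted p = 0.0389). On CD-LFD it was below for Tnfaip3 (-3.49, SE 0.63, adjusted p = 0.000457), Icam1 (-2.27, SE 0.49, adjusted p = 0.00315) and Relb (-1.98, SE 0.48, adjusted p = 0.00762). Both sets share the control livers, in which MlklKO exceeded WT for Icam1, Tnfaip3 and Relb and lay below WT for Tnfaip2 and Birc3, while no member was called between MlklKO and WT on CD-HFD. In the same interactions 1 hepatocyte marker was lower and 1 B and plasma cell marker higher on each diet. There was also 1 endothelial marker higher on CD-HFD and 1 cholangiocyte marker lower on CD-LFD. Their part was not tested.

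The 3 interactions on CD-LFD kept their calls in each of 22 fits without 1 library, and that of Tnfaip3 was -2.84 without MlklKO control replicate 1. Those on CD-HFD did not, since 0 of 10 passed without MlklKO CD-HFD replicate 2 or replicate 4 and 2 passed without MlklKO control replicate 1. Without CD-HFD replicates 2 and 4 in turn, the interaction of Icam1 was -2.03 and -2.14 (adjusted p = 0.057 and 0.0542), that of Tnfaip2 1.31 and 1.23 (0.0502 and 0.0769), that of Tnfaip3 -2.11 and -2.57 (0.0906 and 0.0529) and that of Birc3 0.61 and 0.78 (0.197 and 0.0963). Without control replicate 1 that of Tnfaip3 was -1.70 (adjusted p = 0.0764). In a fit of the compared groups alone the adjusted p was 0.075 for Tnfaip3, 0.0519 for Tnfaip2 and 0.124 for Birc3. With the clock ratio as a covariate it was 0.0563 for Tnfaip2 and 0.0865 for Birc3, and for Birc3 it was 0.0502 with library size as the only scaling, 0.192 with no count filter and 0.0881 without WT control replicates 5 and 6. The Birc3 call was lost in 9 of 21 such fits, the others being those without WT control replicate 1 or 6, WT CD-HFD replicate 1 or 6, or MlklKO control replicate 1, 3 or 4. Among libraries with a clock ratio under -3 the CD-HFD interaction was 0.37 for Tnfaip2 (adjusted p = 0.542), 0.46 for Birc3 (adjusted p = 0.327), -2.25 for Icam1 (adjusted p = 0.0704) and -2.02 for Tnfaip3 (adjusted p = 0.134), and Nfkb2 was the 1 gene that passed (-1.85, adjusted p = 0.0285). No such restriction could be made on CD-LFD. There all WT libraries had clock ratios of -2.66 or more and all knockout libraries were under -3. Clock phase and genotype cannot be told apart in the CD-LFD interactions of either knockout.

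For Ripk3KO, edgeR called 0 of 10 interactions on CD-HFD (0.478% of all genes, 4 members at an unadjusted p under 0.05 beside 10.9% of all genes, 0 by DESeq2) and 0 of 10 on CD-LFD (0.0269% of all genes, 3 members at an unadjusted p under 0.05 beside 8.28% of all genes, 0 by DESeq2). On CD-HFD the 4 were Icam1 (-1.34, SE 0.49, adjusted p = 0.235), Nfkb2 (-1.04, SE 0.38, adjusted p = 0.245), Tnfaip2 (0.99, SE 0.32, adjusted p = 0.16) and Birc3 (0.53, SE 0.22, adjusted p = 0.308). There was 1 call on CD-HFD without WT control replicate 2, 1 without Ripk3KO control replicate 6 and 1 among libraries with a clock ratio under -3, which was Nfkb2 (-2.02, adjusted p = 0.0486).

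A wider list of 79 genes of the pathway, of which 69 were tested, gave the setting. In WT on CD-HFD 40 of the 69 rose and 8 fell, where 23.5% of all genes rose and 24.1% fell. On CD-LFD 29 rose and 3 fell, against 13.7% and 14% of all genes. The chemokine and cytokine targets, through which NF-kappaB recruits leukocytes, numbered 15, of which 3 were under the count filter. Of the 12 tested, 12 rose on CD-HFD and 11 on CD-LFD. Genes that are low on the control diet pass the filter only through the groups where they are high, so these counts are a description. The neutrophil chemokine Cxcl2 went from a mean of 0.0284 CPM in WT control to 0.897 on CD-LFD (adjusted p = 0.000745) and 2.09 on CD-HFD (adjusted p = 8.94e-07). Cx3cl1, a membrane-bound chemokine, was 4.22 higher on the log2 scale on CD-HFD (SE 0.41, adjusted p = 3.43e-11). Bcl2a1b, an anti-apoptotic BCL2 relative, went from a mean of 0.476 to 9.18 CPM on CD-HFD (adjusted p = 1.03e-08). Cxcl10 and Ccl2 were both 2.91 higher on CD-LFD (SE 0.44 and 0.51, adjusted p = 3.44e-06 and 3.49e-05). Bcl2a1b has near-identical neighbours in the mouse genome, so its count is uncertain.

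The largest falls in WT on CD-HFD were those of Il1b (log2 change -1.35, SE 0.40, adjusted p = 0.00496), Chuk (-0.94, SE 0.10, adjusted p = 7.55e-10) and Tab2 (-0.67, SE 0.14, adjusted p = 7.59e-05). Chuk encodes IKK-alpha, the kinase that phosphorylates p100 and so marks it for processing, and Tab2 an adaptor of the kinase TAK1. On CD-LFD Chuk fell by 0.47 (SE 0.10, adjusted p = 0.000612), Map3k7, which encodes TAK1, by 0.44 (SE 0.13, adjusted p = 0.00859), and Sod2, a mitochondrial antioxidant enzyme, by 0.31 (SE 0.11, adjusted p = 0.0266). Among 12 adaptors and kinases 4 rose and 4 fell on CD-HFD. Of the 3 subunits not among the members (Rela, Rel and Nfkb1) 1 rose on CD-HFD and 0 on CD-LFD.

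In the knockouts 30 of the 69 rose and 14 fell on CD-HFD in Ripk3KO, and 28 rose and 18 fell in MlklKO. Of all genes 24.6% rose and 21.7% fell in Ripk3KO and 24.9% rose and 20.3% fell in MlklKO. With library size as the only scaling the calls over all genes moved to 6870 higher and 737 lower in Ripk3KO and to 6364 higher and 727 lower in MlklKO. Plau, the urokinase protease, was 3.76 higher (SE 0.34, adjusted p = 5.74e-12) in Ripk3KO and 3.66 higher (SE 0.33, adjusted p = 5.25e-12) in MlklKO, and Cx3cl1 3.81 (SE 0.41, adjusted p = 4.32e-10) and 3.80 (SE 0.41, adjusted p = 4.22e-10). Among the falls was Cxcl1, a neutrophil chemokine, by 1.95 (SE 0.65, adjusted p = 0.0127) in Ripk3KO and by 3.61 (SE 0.80, adjusted p = 0.000269) in MlklKO. Il1r1, the receptor of interleukin 1, fell by 1.79 (SE 0.32, adjusted p = 1.23e-05) and by 2.70 (SE 0.38, adjusted p = 1.6e-07). On CD-LFD 20 of the 69 rose and 9 fell in Ripk3KO, where 2075 of all genes rose and 1501 fell. In MlklKO 20 of the 69 rose and 18 fell on that diet, where 2925 of all genes rose and 2713 fell. On the control diet 8 of the 69 were higher and 3 lower in Ripk3KO than in WT (2.25% and 2.23% of all genes). In MlklKO 21 were higher and 7 lower (13% and 14.1% of all genes). Cxcl1 and Il1r1 were among the 3 largest named rises in both. Between them by size stood Tlr2 in Ripk3KO (log2 difference 3.10, SE 0.57, adjusted p = 0.00061) and Cxcl2 in MlklKO (4.22, SE 0.94, adjusted p = 0.000842). Cxcl1 averaged 5.45 CPM in WT control, 76.7 in Ripk3KO control (log2 difference 3.81, SE 0.65, adjusted p = 0.000236) and 247 in MlklKO control (5.50, SE 0.68, adjusted p = 2.1e-07). Il1r1 averaged 40.6, 246 and 449 CPM (log2 differences 2.60, SE 0.29, adjusted p = 1.55e-07, and 3.46, SE 0.30, adjusted p = 1.38e-10). Against WT, edgeR called 0 of the 69 on CD-HFD in Ripk3KO (2 at an unadjusted p under 0.05, beside 8.73% of all genes), 0 on CD-HFD in MlklKO (4 at an unadjusted p under 0.05, beside 8.38% of all genes) and 0 on CD-LFD in Ripk3KO (9 at an unadjusted p under 0.05, beside 11.4% of all genes). On CD-LFD in MlklKO it called 1 of the 69, beside 2.56% of all genes. This was Ikbkg, the regulatory subunit of IKK (-0.56, SE 0.14, adjusted p = 0.015). In the interactions of knockout and diet 3 of the 69 were lower for Ripk3KO on CD-HFD (0.343% of all genes), 9 for MlklKO on CD-HFD (2.54% of all genes) and 14 for MlklKO on CD-LFD (4.08% of all genes), and 0 were higher in these 3 comparisons. For Ripk3KO on CD-LFD edgeR called 0, with 13 at an unadjusted p under 0.05, beside 8.28% of all genes.

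Across the 44 livers the genes whose log2 CPM was most like that of each member were listed among 11152 genes, as a description over libraries that share diet groups. For Tnf these were Ly86 and Cx3cr1 (both r = 0.93), for Ltb Coro1a (0.97) and AU020206 (0.95), and for Vcam1 Cd53 (0.95) and Plek (0.94). For Icam1 they were Tlr2 (0.92) and Lcn2 (0.89), for Tnfaip3 Cd14 (0.88), and for Relb Tnip1 (0.93) and Ccl2 (0.92). Nfkb2 was nearest to Rhbdf2 (0.92) and Relb (0.91), Nfkbia to H2-K2 (0.81) and Pfn1 (0.80), Birc3 to Grk3 (0.86) and Cul9 (0.86), and Tnfaip2 to Zbtb4 (0.85) and Cdcp1 (0.85). The 45 pairs of members had a median r of 0.58 over libraries and 0.24 after each group's mean was removed. Nfkb2 and Relb were the pair most alike, at 0.91 and 0.79.

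Against the summed macrophage markers, r over the 44 libraries was 0.88 for Ltb, 0.87 for Vcam1, 0.84 for Tnf and 0.50 for Icam1. After group means were removed it was 0.26 for Ltb, 0.58 for Vcam1, 0.17 for Tnf and 0.43 for Icam1. Of the 10 members Vcam1 had the highest r with macrophage markers within groups, and Nfkbia, at 0.32 over libraries, was -0.40 within groups. Against the summed T and NK cell markers r was 0.89 for Ltb over libraries and 0.53 within groups. These values are across livers that share diet and scaling and carry no test.

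**Figure D4:**
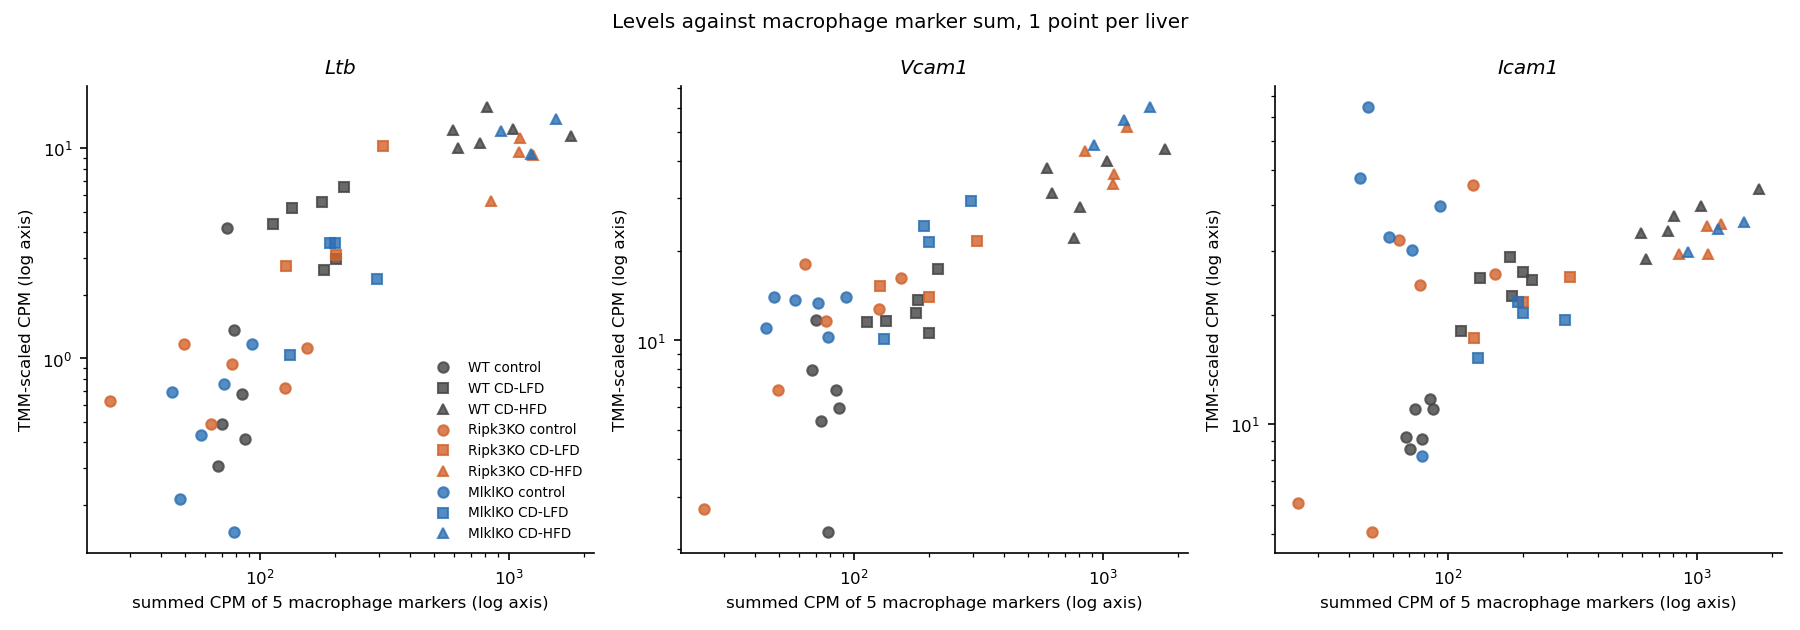
Levels of Ltb, Vcam1 and Icam1 (vertical log axes, TMM-scaled CPM) against the summed CPM of 5 macrophage markers (horizontal log axis), 1 point per liver, with colour for genotype and shape for diet. Ltb and Vcam1 climb with the marker sum (r = 0.88 and 0.87), whereas for Icam1 (r = 0.50) the knockout control livers spread over 5.05 to 74.3 CPM at low marker sums.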

How the data were processed

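Read counts per gene from 44 mouse liver libraries were used as the authors deposited them. Per the submitters' processing notes, FastQC, STAR, HTSeq, edgeR and limma were used with GRCm39 (mm39), while the annotation release and the strand setting of the counting are not given in the sources used here. The library kit is directional, per the labels' protocols. Of 35249 genes (34373 with a symbol), 14862 passed edgeR's filterByExpr with a minimum count of 10 and held 99.8% of counts.

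In R 4.3.3, edgeR 4.0.16 was fitted with TMM scaling and 1 mean per group over all 44 libraries, so that the groups share 1 estimate of spread. Its quasi-likelihood F test gave 19 comparisons, 9 of diets, 6 of genotypes and 4 interactions, with Benjamini-Hochberg adjustment in each and a threshold of 0.05. The SE of a log2 change is its size divided by the square root of F. Alternatives were other scalings, no count filter, a replicate block, the clock ratio as covariate, the compared groups alone, DESeq2 1.42.0 and leaving out each library.

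The members and gene lists were chosen with earlier results of these data known. All 10 members are named in the text, with up to 3 rises and 3 falls of the wider list per comparison described and the 2 genes most like each member (predicted genes left out), of which 1 is not reported here. The 93 pairs of libraries within groups differed beyond sampling noise (chi-square per degree of freedom 7.22 to 110), so each was counted as 1 sample.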

Additional observations from a re-analysis of the deposited data

Results flagged for a closer look

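In 8 of 70 gene and group pairs with 4 to 6 libraries the highest library stood far from the others by Dixon's criterion, where chance gives about 1 in 20. In WT control, replicate 6 was high for Tnf (0.978 CPM) and Ltb (4.15 CPM). Nfkb2 was high in WT CD-HFD replicate 6 (71.5 CPM) and Tnfaip3 in WT CD-LFD replicate 1 (28.7 CPM). In Ripk3KO control, replicate 3 was high for Relb (6.36 CPM), and replicate 6 for Tnfaip3 (6.98 CPM) and Tnfaip2 (30.3 CPM). In MlklKO control, replicate 1 was high for Tnfaip3 (44.6 CPM).

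Of 40 interactions of knockout and diet over the 10 genes, 7 passed edgeR's test, all in MlklKO. On CD-HFD they were those of Icam1 (-2.04), Tnfaip3 (-2.35), Tnfaip2 (1.38) and Birc3 (0.78) on the log2 scale. On CD-LFD they were those of Icam1 (-2.27), Relb (-1.98) and Tnfaip3 (-3.49). Of all genes 4.12% passed for MlklKO on CD-HFD and 8.45% on CD-LFD, beside 0.478% and 0.0269% for Ripk3KO.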

How the results depend on the processing

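Over the alternatives, the 64 member calls gave 1259 values, of which 1259 kept their direction, 1155 kept the call and 0 reversed. Leaving out WT control replicates 5 and 6, leaving out the libraries labelled Ripk3KO control replicate 5 and MlklKO CD-HFD replicate 1 (the highest counts of the deleted gene within each knockout), and keeping only libraries with a clock ratio under -3 were chosen after seeing the data. Counts of members called that moved by over 1.5 times follow. With library size as the only scaling there were 6 for Ripk3KO CD-LFD against control (3 in the report), 4 for Ripk3KO CD-HFD against CD-LFD (1), 1 for Ripk3KO against WT on control (2) and 3 for MlklKO against WT on CD-LFD (1). In the same order 4423, 1531, 951 and 873 of all genes were called, against 3576, 1312, 665 and 381 in the report. With the clock ratio as covariate there were 4 for WT CD-HFD against CD-LFD (2), 1 for Ripk3KO against WT on control and 0 for MlklKO against WT on CD-LFD. Over all genes these fits called 2694, 171 and 18. In fits of the compared groups alone there were 4 for WT CD-HFD against CD-LFD, 5 for Ripk3KO CD-HFD against CD-LFD, 3 for MlklKO CD-LFD against control (7), 0 for Ripk3KO against WT on control and 1 for the MlklKO interaction on CD-HFD (4). The calls over all genes were 3084, 2821, 5208, 45 and 235. DESeq2 gave 2 for Ripk3KO CD-HFD against CD-LFD, with 1554 of all genes called. Without those 2 knockout libraries there was 1 for Ripk3KO against WT on control, and without the 2 WT control libraries 1 for the Ripk3KO interaction on CD-HFD (0). These fits called 464 and 149 of all genes. At a clock ratio under -3 there was 1 for Ripk3KO against WT on control, 1 for the Ripk3KO interaction and 1 for the MlklKO interaction on CD-HFD. There 139, 67 and 716 of all genes were called. The cause was not tested.

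With the replicate number as a block the counts were 2 for Ripk3KO CD-HFD against CD-LFD, 1 for Ripk3KO against WT on control and 0 for MlklKO against WT on CD-LFD. Over all genes they were 1377, 658 and 283. Calls lost under the block were Vcam1 in MlklKO CD-LFD against control (adjusted p = 0.0522), Icam1 in Ripk3KO against WT on control (adjusted p = 0.0555) and Tnfaip2 in MlklKO against WT on CD-LFD (adjusted p = 0.0501). The numbers do not pair the mice: over 146 same-numbered pairs the deviations from group means had a median r of -0.0114 (-0.349 to 0.545), and 9 of 44 libraries were most like one of their own number.

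Leaving out 1 library at a time gave 7 to 9 calls for WT CD-HFD, 7 to 8 for WT CD-LFD and 2 to 3 between these diets. It gave 7 to 9, 2 to 3 and 0 to 2 in Ripk3KO, and 7 to 8, 3 to 6 and 5 to 6 in MlklKO. Against WT it gave 1 to 3 for Ripk3KO and 5 to 7 for MlklKO on control, 0 to 0 and 0 to 1 on CD-LFD, and 0 to 0 for both on CD-HFD. For interactions it gave 0 to 1 for Ripk3KO and 0 to 5 for MlklKO on CD-HFD, and 0 to 0 and 3 to 4 on CD-LFD. In the same order, the calls over all genes in these fits were 6486 to 7587, 3204 to 5313 and 2498 to 3238 in WT. In Ripk3KO these were 5850 to 7001, 1390 to 4105 and 510 to 1299. In MlklKO they were 5653 to 6814, 4316 to 5643 and 1934 to 3150. Tnf, at 5 to 7 reads per control group, is limited by depth.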
